A study of Saccharomyces cerevisiae with 12 samples.

Results

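The 32 genes described here make, esterify and control ergosterol, the main sterol of yeast membranes. They were taken by name from the 6120 rows of the deposited table and all 32 had a row there. They fall into 9 genes of the mevalonate steps, 16 genes of the steps after farnesyl diphosphate, from squalene to ergosterol, 4 steryl ester genes and 3 genes of control and transport. The data are poly(A) RNA sequencing of budding yeast (Saccharomyces cerevisiae, strain pJD47), with n = 3 libraries at each of 4 time points around the exit from quiescence. Quiescent cells (Q) had been moved while growing in synthetic glucose medium to water with 10 mM deuterated acetate and kept there for 7 days. Cells leaving quiescence had been washed and put back into liquid medium for 30 min (E30) or 240 min (E240), and the fourth group (LOG) was labelled as logarithmic growth. All groups share the strain, and the labels name no mutation or drug. The labels call the libraries biological replicates but do not say whether each came from a separate culture, so the p-values measure the spread between these libraries, which may in part be technical.

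Yeast builds sterols from acetyl-CoA. The mevalonate steps join acetyl-CoA units, reduce the product to mevalonate with HMG-CoA reductase and end at farnesyl diphosphate, which also feeds other isoprenoids. Squalene synthase then commits farnesyl diphosphate to sterols, and a chain of enzymes of the endoplasmic reticulum, several of which consume molecular oxygen or carry haem, turns squalene into ergosterol. Surplus sterol is joined to fatty acids by acyltransferases and stored as steryl esters in lipid droplets, from which hydrolases release it again. The zinc-cluster factors Upc2 and Ecm22 bind a sterol response element and raise transcription of many ERG genes when sterols are low.

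Values are normalised read counts, that is, reads per gene divided by a size factor per library, and are not corrected for gene length. Changes are log2 fold changes ± SE on log2(value + 1), with the adjusted p of limma over the 5871 genes whose mean reached 10, among them all 32 sterol genes. Calls were made at an adjusted p under 0.05. Depth ran from 1195233 to 5220494 recovered reads per library in Q, 7943459 to 11866340 in E30, 11572190 to 12428294 in E240 and 13480102 to 15100323 in LOG. Replicate 1 stood apart in every group. Its median distance from the mean of replicates 2 and 3, over the 32 genes, was 0.29, 0.37, 0.47 and 0.66 on the log2 scale in Q, E30, E240 and LOG, where replicates 2 and 3 differed by a median of 0.11, 0.10, 0.07 and 0.21. In LOG the distance exceeded 1 for 12 of the 32 genes. What sets replicate 1 apart was not tested. Of 7 genes that mark the starved state, 7 were called lower in E240 than in Q. Of 6 growth genes 6 were called higher, and of 7 sporulation genes 1 was higher and 4 were lower, where 29.1% and 29.5% of all tested genes were called higher and lower. In LOG, 6 of the 7 starved-state genes were lower than in Q (27.8% of all tested genes). Against E240, 1 was higher and 0 were lower (3.27% and 4.09%). HSP12 of that list, chosen after its values were seen, averaged 20944 ± 18816 in LOG, 4021 ± 2532 in E240 and 26937 ± 2894 in Q (SD, n = 3 each). Its SD in LOG was thus nearly as large as its mean. All other genes of that list had lower means in LOG than in Q, such as SPG4 (1890 ± 1748 against 57456 ± 12704) and SPG5 (1017 ± 250 against 22026 ± 3069). For poly(A) RNA of whole cultures, fewer cells with a transcript and less of it per cell cannot be told apart.

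The core of the sterol response element, TCGTATA, was searched on both strands before the start codons of all protein-coding genes of the nuclear genome. In the window from 250 bases before the start codon to 50 bases into the gene, 4 of the 32 genes held it (12.5%), against 4.15% of 6007 windows. In the 500 bases before the start codon, a window chosen after the values were seen, 10 of the 32 held it (31.2%), against 6.99% of 6006 windows. The 10 were ERG13, ERG8, ERG1, ERG25, ERG28, CYB5, ERG6, ERG2, ERG3 and YEH1. The sites of the 6 holders that were called higher in E240 than in E30, and of YEH1, the only holder called lower there, are given below in the direction of the gene (reference R64, the assembly of the sacCer3 build), with the motif, or its reverse complement, in capitals. ERG13 and ERG3 each held a further match.
ERG13 (chrXIII:20723-20769, minus strand, 214 bases before the start codon): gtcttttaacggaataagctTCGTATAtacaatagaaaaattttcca
ERG1 (chrVII:848779-848825, minus strand, 382 bases before): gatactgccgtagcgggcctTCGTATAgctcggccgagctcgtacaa
ERG28 (chrV:238268-238314, minus strand, 278 bases before): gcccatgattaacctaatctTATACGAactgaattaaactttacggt
ERG6 (chrXIII:253396-253442, minus strand, 432 bases before): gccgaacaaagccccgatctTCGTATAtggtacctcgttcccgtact
ERG2 (chrXIII:667332-667378, plus strand, 185 bases before): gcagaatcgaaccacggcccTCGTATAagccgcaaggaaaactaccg
ERG3 (chrXII:253555-253601, plus strand, 286 bases before): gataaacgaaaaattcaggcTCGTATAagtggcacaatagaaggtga
YEH1 (chrXII:125299-125345, plus strand, 215 bases before): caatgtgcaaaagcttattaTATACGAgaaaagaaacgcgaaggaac

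Of the 10 sterol genes with the motif in the 500-base window, 6 were called higher in E240 than in E30, and of the 22 without it 8. Over all 400 tested genes with the motif in that window, 13.8% were called higher and 15.8% lower. Of the holders in the shorter window, ERG13 and ERG2 were called higher, YEH1 lower, and ERG8 was not called. ATTGTTC, part of the site of the hypoxic repressor Rox1, was found in 8 of the 32 windows of 250 and 50 bases (25.0%), against 7.66% of all windows. In the 500 bases before the start codon it was found in 9 of the 32 (28.1%), against 11.8% of all windows. ERG1 had 3 such matches on the opposite strand, 86, 68 and 49 bases before its start codon. The motifs overlapped in none of the sterol gene promoters in the longer window. A match is a stretch of letters, not evidence that a factor was bound.

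Over the time course most sterol genes were lowest in Q or E30 and highest in E240 or LOG. By the mean of the 3 libraries, 13 of the 32 genes were lowest in Q, 14 in E30, 2 in E240 and 3 in LOG. The highest mean fell in Q for 6 genes, in E30 for 2, in E240 for 9 and in LOG for 15. The places of all tested genes were not counted beside these, so the counts describe the 32 genes only. They also depend on the deposited scaling. Total-count scaling moved the median of all genes by 0.25 in E30 over Q, -0.45 in E240 over E30 and -0.47 in LOG over Q. The 6 with their peak in Q were HMG2, ERG8, ERG9, ERG7, ARE2 and ECM22, and the 2 with their peak in E30 were YEH1 and HES1. Per kb of coding length, the highest level in Q was that of ERG10, at 3464 ± 422 per kb (SD, n = 3), and the lowest that of ERG5, at 98.7 ± 22.8 per kb. In E30 the order was led by IDI1 at 3765 ± 712 per kb and ERG4 at 2211 ± 635 per kb, and HMG1 was last at 129 ± 14.5 per kb. In E240 ERG10 (4180.3 ± 1136 per kb) and ERG1 (3954 ± 1034 per kb) stood first, and their difference was not tested. In LOG ERG10 led at 5784 ± 2741 per kb and HES1 was last at 69.7 ± 28.8 per kb.

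**Figure D1:**
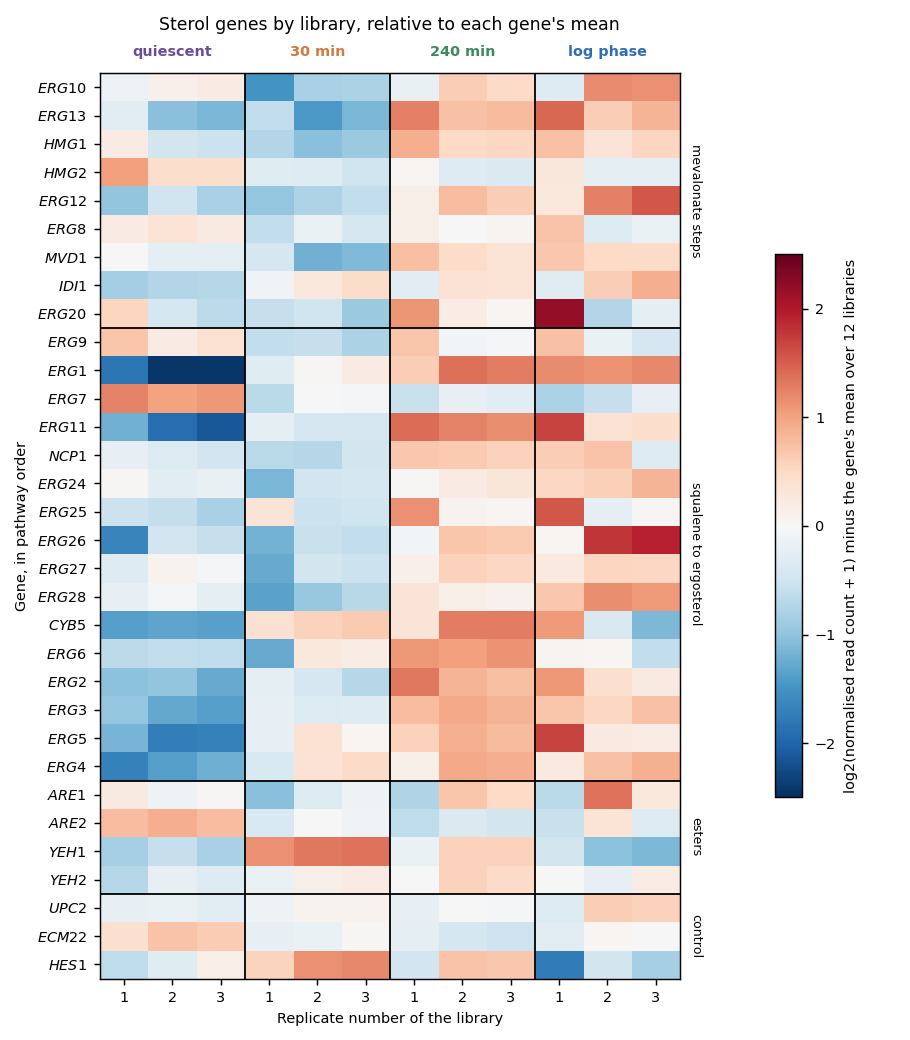
Heat map of the 32 sterol genes (rows, in pathway order and by role) in the 12 libraries (columns, by time point and replicate number); colour gives log2(normalised read count + 1) minus the gene's own mean over the 12 libraries, red above and blue below it. ERG1 and ERG11 run from blue in Q to red in E240, ERG7 runs the other way, YEH1 is red in E30, and replicate 1 of LOG differs from the other LOG libraries in ERG20, ERG26, ERG11 and CYB5.

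The first comparison set E30 against Q, the first 30 min in fresh medium. The sterol genes went in both directions, as all tested genes did. Of the 32 sterol genes 9 were called higher and 11 lower, where 20.6% and 23.7% of all tested genes were called higher and lower. The genes of the mevalonate steps stood mostly on the lower side (1 higher, 5 lower of 9, median -0.64). Those from squalene to ergosterol went both ways (6 higher, 4 lower of 16, median 0.39), and the median of all tested genes was -0.07. The lower count of these 16 genes is near the share of all tested genes (23.7%). Squalene epoxidase ERG1 was among the higher genes, and squalene synthase ERG9 and lanosterol synthase ERG7, the steps before and after it, were among the lower, an example chosen after the values were seen.

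Among the mevalonate genes, ERG10 encodes the thiolase that joins acetyl-CoA units (YPL028W, chromosome XVI, 498096 to 499292, plus strand). It had 1409, 2258 and 2287 in E30, against 3584, 4291 and 4564 in Q. All E30 libraries lay below all Q libraries (-1.09 ± 0.38, adjusted p = 0.0362). HMG2 encodes a minor form of HMG-CoA reductase (YLR450W, chromosome XII, 1032627 to 1035764, plus strand) and had 815, 807 and 710.0 in E30, against 2057, 1357 and 1369 in Q (-1.01 ± 0.22, adjusted p = 0.00331). HMG1, its main form during aerobic growth (YML075C, chromosome XIII, 115734 to 118898, minus strand), had 457, 367 and 397 in E30, against 872, 549.6 and 523 in Q (-0.64 ± 0.23, adjusted p = 0.0384). Both reductase genes were lower in every E30 library than in any Q library. The mevalonate diphosphate decarboxylase gene MVD1 (-0.76 ± 0.22) and the phosphomevalonate kinase gene ERG8 (-0.65 ± 0.25, adjusted p = 0.0490) fell as well. IDI1, the isomerase that makes dimethylallyl diphosphate (YPL117C, chromosome XVI, 327864 to 328730, minus strand), went the other way. It had 2612, 3341 and 3840.4 in E30, against 1555, 1682 and 1701 in Q, with no overlap (0.97 ± 0.30, adjusted p = 0.0198). The HMG-CoA synthase gene ERG13 (-0.24 ± 0.30), the mevalonate kinase gene ERG12 (-0.02 ± 0.30) and the farnesyl diphosphate synthase gene ERG20 (-0.48 ± 0.61) were not called.

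From squalene on, ERG1, whose product adds the first oxygen to squalene (YGR175C, chromosome VII, 846933 to 848423, minus strand), had 2201, 2764 and 3100.0 in E30, against 767, 497 and 499 in Q. Every E30 library lay well above every Q library (2.21 ± 0.25, adjusted p = 5.82e-05), the largest rise among the 32 genes in this comparison. CYB5, the cytochrome b5 gene, whose product carries electrons to sterol desaturases and other enzymes (YNL111C, chromosome XIV, 416940 to 417302, minus strand), had 334, 380.2 and 399 in E30, against 97.6, 102 and 98.7 in Q (1.89 ± 0.44, adjusted p = 0.00432). The groups did not overlap, though the value in Q replicate 1 rests on 14 recovered reads. The other called rises were those of ERG5 (1.60 ± 0.35), ERG4 (1.58 ± 0.30), ERG11 (1.39 ± 0.33) and ERG3 (0.92 ± 0.18), which encode the sterol desaturase and reductase of the last steps, lanosterol demethylase and another desaturase. Enzymes that use molecular oxygen are encoded by ERG1, ERG11, ERG25, ERG3 and ERG5, a grouping made after the values were seen. Of these 5 genes 4 were called higher and none lower by limma (median 1.39). The lower count was also 0 at an unadjusted p under 0.05, by edgeR and by DESeq2. The remaining one, the sterol methyl oxidase gene ERG25, stood at 0.41 ± 0.44. Of the other 27 sterol genes 5 were called higher and 11 lower (median -0.48). Since the grouping followed the values, and every tool used the same libraries, these counts describe the grouping and do not test it.

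ERG7, whose product closes oxidosqualene into lanosterol (YHR072W, chromosome VIII, 239098 to 241293, plus strand), had 902, 1439 and 1394 in E30, against 3368, 2884 and 3044 in Q (-1.34 ± 0.23, adjusted p = 6.50e-04). All E30 values were below all Q values, and this was the largest fall among the 32. ERG9 (-1.09 ± 0.30), ERG28, the gene of a scaffold protein that holds late enzymes together (-0.83 ± 0.21), and the ketoreductase gene ERG27 (-0.67 ± 0.24) also fell. The reductase genes NCP1 (-0.27 ± 0.25) and ERG24 (-0.54 ± 0.21), the dehydrogenase gene ERG26 (0.12 ± 0.47), the methyltransferase gene ERG6 (0.36 ± 0.34) and the isomerase gene ERG2 (0.62 ± 0.25) were not called. With the replicate number as a block, ERG24 and ERG2 were called (adjusted p = 0.0299 and 0.00815).

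Of the 4 steryl ester genes, 1 was called higher and 1 lower in the same comparison. These counts are near the shares of all tested genes (20.6% and 23.7%). YEH1, a hydrolase that frees sterol from esters (YLL012W, chromosome XII, 125534 to 127255, plus strand), had 765, 875 and 899.6 in E30, against 195, 235 and 199 in Q. The groups were far apart (2.01 ± 0.25, adjusted p = 8.29e-05). ARE2, the acyltransferase that makes most steryl ester in aerobic cells (YNR019W, chromosome XIV, 665339 to 667267, plus strand), had 779.5, 1016 and 956 in E30, against 1736, 1908 and 1745 in Q (-0.98 ± 0.23, adjusted p = 0.00417), again without overlap. ARE1, its paralog (YCR048W, chromosome III, 211929 to 213761, plus strand), had 512, 832 and 972 in E30, against 1227, 969.5 and 1084 in Q (-0.55 ± 0.48, adjusted p = 0.371), with overlapping groups. ARE1 is overlapped on the other strand by YCR050C, and no source used here gives the strand setting of the counting, so its values are uncertain. The hydrolase gene YEH2 (YLR020C, chromosome XII, 181789 to 183405, minus strand) had 875, 1079 and 1117 in E30, against 593, 849 and 785 in Q (0.47 ± 0.22, adjusted p = 0.0944), and was called with the replicate block (adjusted p = 0.0306).

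Of the control and transport genes, HES1 (also known as OSH5), an oxysterol-binding protein homologue (YOR237W, chromosome XV, 781994 to 783298, plus strand), had 253, 384 and 401 in E30, against 112, 140.0 and 194 in Q (1.22 ± 0.39, adjusted p = 0.0242). ECM22 (YLR228C, chromosome XII, 600019 to 602463, minus strand) had 785, 815 and 926 in E30, against 1206, 1493 and 1418 in Q (-0.70 ± 0.18, adjusted p = 0.00636). Neither pair of groups overlapped. UPC2, its paralog (YDR213W, chromosome IV, 889751 to 892492, plus strand), had 766, 881 and 878 in E30, against 725, 739 and 688 in Q (0.23 ± 0.24, adjusted p = 0.458).

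The lower calls of E30 depended on the scaling of the libraries. With total-count scaling, which moved the median of all genes by 0.25, the counts were 11 higher and 4 lower, and with upper-quartile scaling 11 and 6. The calls of ERG10, HMG1, ERG8, MVD1, ERG27, ERG9 and ECM22 were lost with total-count scaling, while no called change turned its sign. ERG10 lost its call without any 1 of the 6 libraries (adjusted p = 0.0535 to 0.131), and so did ERG8 (0.0521 to 0.144). The count of lower calls was 7 without E30 replicate 2 and 7 without E30 replicate 3. HMG1 and IDI1 lost theirs without Q replicate 1 (adjusted p = 0.141 and 0.0537), E30 replicate 2 (0.119 and 0.0564) or E30 replicate 3 (0.0977 and 0.0779), and HMG1 then stood at -0.40 without Q replicate 1. MVD1 lost its call without E30 replicate 2 (0.0731) or 3 (0.0676). ERG27 did so without Q replicate 2 (0.126), Q replicate 3 (0.103) or E30 replicate 1 (-0.41, 0.165). HES1 did so without Q replicate 1 (0.0850), Q replicate 2 (0.0607), E30 replicate 2 (0.0746) or E30 replicate 3 (0.0812). The calls of ERG1, CYB5, ERG5, ERG4, ERG11, ERG3, YEH1, ERG7, HMG2, ERG9, ERG28, ARE2 and ECM22 held without any 1 of the 6 libraries.

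**Figure D2:**
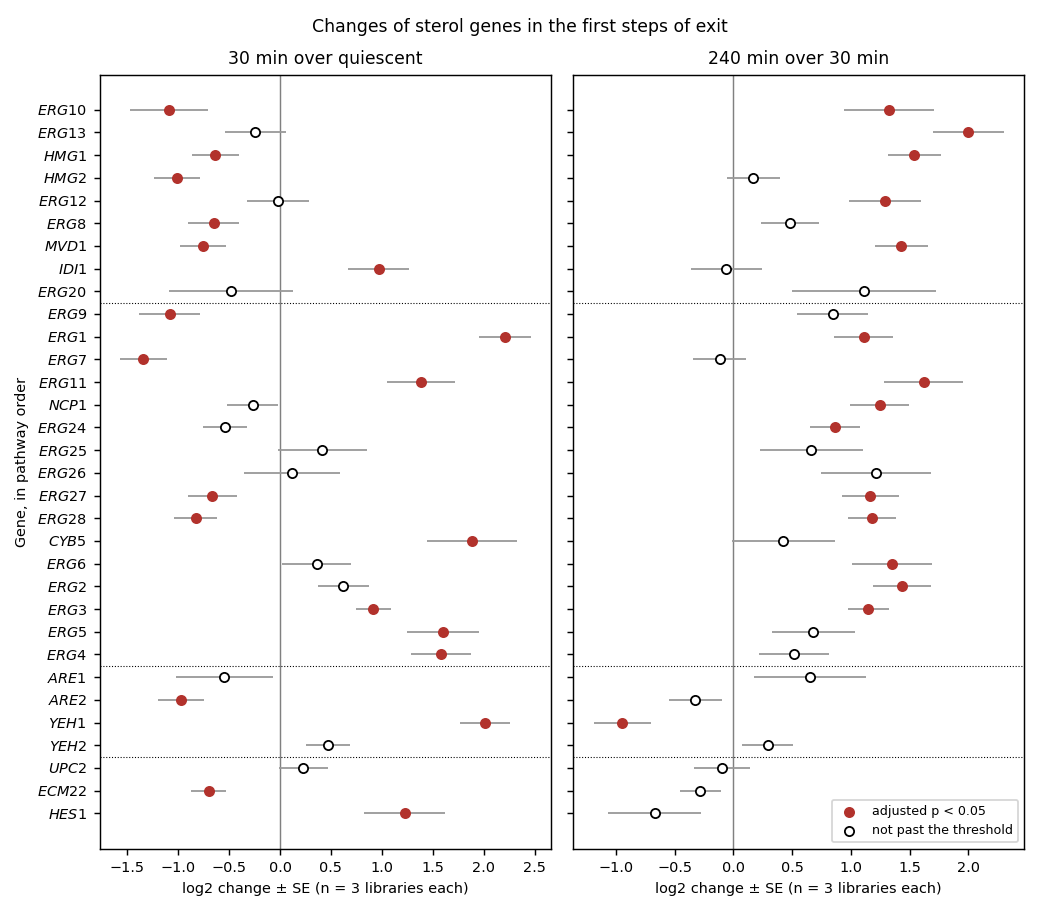
Log2 change of each of the 32 genes (rows, in pathway order) in E30 over Q (left) and E240 over E30 (right), with the SE of limma as the bar; filled points had an adjusted p under 0.05. On the left ERG1 (2.21) and ERG7 (-1.34) mark the ends of the range, and on the right the genes up to ERG4 stand at or above 0 except IDI1 and ERG7, which lie just below it.

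The second comparison set E240 against E30. Of the 32 sterol genes 14 were called higher, 1 was called lower and 17 were not called, where 13.3% and 14.0% of all tested genes were called higher and lower. The mevalonate steps had 5 of 9 called higher (median 1.29) and the steps from squalene to ergosterol 9 of 16 (median 1.13), while all tested genes had a median of -0.01. None of these 25 genes was called lower by limma, and none of the 7 steryl ester, control and transport genes was called higher. Both counts were also 0 at an unadjusted p under 0.05, by edgeR and by DESeq2, which used the same libraries. For the 7 genes a count of 0 is near the 13.3% of all tested genes, so it does not set them apart.

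ERG13, the HMG-CoA synthase gene (YML126C, chromosome XIII, 19060 to 20535, minus strand), had 2969, 2058 and 2134 in E240, against 799.7, 456 and 555 in E30. Every E240 library was above every E30 library (2.00 ± 0.30, adjusted p = 5.48e-04), and this was the largest rise among the 32. HMG1 had 1419.8, 1073 and 1080.1 in E240, against 457, 367 and 397 in E30 (1.54 ± 0.23, adjusted p = 4.66e-04), while HMG2 had 1046, 807 and 787 in E240, against 815, 807 and 710.0 in E30 (0.17 ± 0.22, adjusted p = 0.624). HMG1 did not overlap between the groups and HMG2 did, with 807 and 787 in E240 against 815 in E30. A call in 1 gene and not in the other does not test their difference, and their ratio is given below. MVD1 (1.43 ± 0.22), ERG10 (1.33 ± 0.38) and ERG12 (1.29 ± 0.30) rose too. ERG20 (1.11 ± 0.61), ERG8 (0.48 ± 0.25) and IDI1 (-0.06 ± 0.30) were not called.

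ERG11, the gene of lanosterol demethylase (YHR007C, chromosome VIII, 120091 to 121683, minus strand), had 6227, 5541 and 5259 in E240, against 2025, 1751 and 1760.3 in E30 (1.62 ± 0.33, adjusted p = 0.00391). ERG2, the sterol isomerase gene (YMR202W, chromosome XIII, 667537 to 668205, plus strand), had 1988, 1431 and 1331 in E240, against 669, 593 and 481 in E30 (1.44 ± 0.25, adjusted p = 0.00136). Neither pair of groups overlapped. ERG6 (1.35 ± 0.34), NCP1 (1.25 ± 0.25), ERG28 (1.18 ± 0.21), ERG27 (1.17 ± 0.24), ERG3 (1.15 ± 0.18), ERG1 (1.11 ± 0.25) and ERG24 (0.87 ± 0.21) were the other called rises. NCP1 passes electrons to Erg11, whose transcript rose as well. ERG7 stayed at -0.12 ± 0.23, and ERG9, ERG25, ERG26, CYB5, ERG5 and ERG4 lay between 0.42 and 1.22 without a call. ERG9, ERG26 and ERG4 were called with the replicate block (adjusted p = 0.00842, 0.00249 and 0.0194).

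YEH1 was the only gene of the 32 called lower here. It had 309.9, 522 and 518 in E240, against 765, 875 and 899.6 in E30, with no overlap (-0.95 ± 0.25, adjusted p = 0.0141). YEH2 had 980.4, 1447 and 1363 in E240, against 875, 1079 and 1117 in E30 (0.29 ± 0.22, adjusted p = 0.352). ARE2 had 656, 788 and 743 in E240, against 779.5, 1016 and 956 in E30 (-0.33 ± 0.23, adjusted p = 0.317), and ARE1 had 627, 1703 and 1499 in E240, against 512, 832 and 972 in E30 (0.65 ± 0.48, adjusted p = 0.347). In YEH2, ARE2 and ARE1 the groups overlapped. ECM22 (-0.28 ± 0.18), UPC2 (-0.10 ± 0.24) and HES1 (-0.67 ± 0.39) were not called, and HES1 was with the block (adjusted p = 0.0270).

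With total-count scaling, which moved the median of all genes by -0.45, 11 sterol genes were higher and 4 lower in E240, and ERG10, ERG24 and ERG6 lost their calls. Without E30 replicate 2 or 3, YEH1 lost its call (adjusted p = 0.0518 and 0.0545), so that the count of lower genes was 0. ERG10 lost its call without E30 replicate 1 (0.0864), E240 replicate 2 (0.0864) or E240 replicate 3 (0.0795), and the change of ERG6 was 0.86 without E30 replicate 1, where it stayed called. With the block 17 genes were higher and 2 lower. Without the 4 replicate 1 libraries together 24 were higher and 3 lower.

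**Figure D3:**
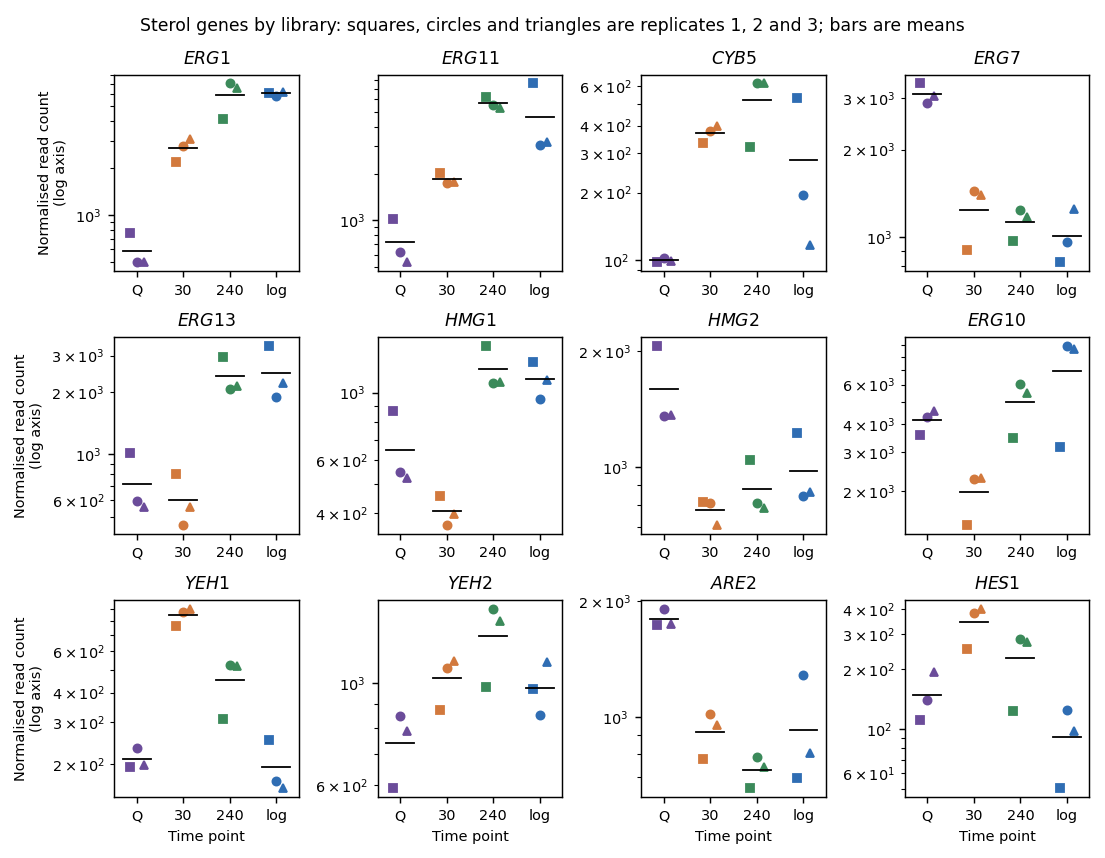
Normalised read count (log axis) in each of the 12 libraries for 12 sterol genes, by time point (Q, 30 min, 240 min and log phase); squares, circles and triangles are replicates 1, 2 and 3 and bars are means of the 3. ERG1 and ERG11 step up at 30 and 240 min, ERG7 and ARE2 step down at 30 min, and YEH1 and HES1 are highest at 30 min.

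The third comparison set LOG against E240. Few genes of any kind were called here, 3.27% of all tested genes higher and 4.09% lower. The sterol genes stood near these shares, with 1 higher and 2 lower of 32, and the median over the 32 was 0.01. ERG28 (YER044C, chromosome V, 237570 to 238016, minus strand) had 584, 820.3 and 766 in LOG, against 459.6, 408 and 395 in E240 (0.77 ± 0.21, adjusted p = 0.0446). ERG6, the sterol methyltransferase gene (YML008C, chromosome XIII, 251839 to 252990, minus strand), had 1189, 1168 and 737 in LOG, against 2395, 2296 and 2485 in E240 (-1.25 ± 0.34, adjusted p = 0.0467). YEH1 had 253, 169.9 and 159 in LOG, against 309.9, 522 and 518 in E240 (-1.20 ± 0.25, adjusted p = 0.0182). The groups overlapped in none of these genes, but none was called by limma fitted to these 2 groups alone (adjusted p = 0.172, 0.111 and 0.149).

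Over the 32 genes the median SD between libraries was 0.46 on the log2 scale in LOG and 0.27 in E240. ERG20, the farnesyl diphosphate synthase gene (YJL167W, chromosome X, 105014 to 106072, plus strand), had 8491, 1110.1 and 1555 in LOG, against 4006, 2095 and 1917 in E240. Replicate 1 stood above the other libraries in both groups (-0.04 ± 0.61, adjusted p = 0.974). ERG26 had 1147, 3801 and 4248 in LOG, against 1051, 1783 and 1748 in E240, with replicate 1 the lowest in both groups (0.83 ± 0.47, adjusted p = 0.290; adjusted p = 0.0361 with the replicate block). CYB5 had 532, 196 and 116 in LOG, against 320.3, 618 and 618 in E240 (-1.11 ± 0.44, adjusted p = 0.140). HES1 had 50.7, 125 and 97.3 in LOG, against 123, 283 and 275 in E240 (-1.31 ± 0.39, adjusted p = 0.0659; adjusted p = 0.00648 with the block). Without LOG replicate 1, 5 sterol genes were called higher and 5 lower, and the added calls were those of ERG10 (0.86), ERG12 (0.90), ERG26 (1.44), UPC2 (0.68), ERG11 (-0.86), CYB5 (-1.71) and ERG2 (-0.66). Without Q replicate 1 the counts were 1 and 1, and without Q replicate 2 or 3 or E30 replicate 2 or 3, which share the estimate of the spread, they were 0 and 1. Without E240 replicate 2 or 3, or LOG replicate 2 or 3, no sterol gene was called in either direction by limma. The adjusted p of ERG28 was then 0.156 to 0.184, that of ERG6 0.102 to 0.192 and that of YEH1 0.0624 to 0.104, and ERG6 also lost its call without E240 replicate 1 (0.0817). With total-count scaling, which moved the median of all genes by -0.27, none was higher and 3 were lower.

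Set against Q, the later groups showed the whole span of the change. In E240, 17 of the 32 genes were called higher and 4 lower than in Q, where 29.1% and 29.5% of all tested genes were called higher and lower. In LOG the counts were again 17 and 4, where the shares of all tested genes were 28.8% and 27.8%. These comparisons share the Q libraries with each other and with the first comparison. The largest rises in E240 over Q were those of ERG1 (3.32 ± 0.25, adjusted p = 9.97e-07) and ERG11 (3.01 ± 0.33), followed by CYB5 (2.31 ± 0.44), ERG5 (2.28 ± 0.35), ERG4 (2.09 ± 0.30), ERG3 (2.06 ± 0.18) and ERG2 (2.06 ± 0.25). ERG1 averaged 5896 ± 1542 in E240 and 588 ± 155 in Q (SD, n = 3 each). In LOG ERG1 averaged 6057 ± 166, and its change over Q was 3.39 ± 0.25 (adjusted p = 5.89e-07). The change of ERG11 in LOG over Q was 2.57 ± 0.33, that of ERG5 was 2.23 ± 0.35 and that of ERG26 was 2.17 ± 0.47.

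The genes lower than in Q at both later points were ERG7, HMG2, ARE2 and ECM22. ERG7 stood at -1.46 ± 0.23 in E240 over Q and at -1.63 ± 0.23 in LOG over Q. ARE2 stood at -1.30 ± 0.23 in E240 over Q, and averaged 928 ± 313 in LOG and 1797 ± 96.9 in Q (adjusted p = 0.00236). ECM22 stood at -0.98 ± 0.18 in E240 and -0.67 ± 0.18 in LOG over Q, and HMG2 at -0.84 ± 0.22 in E240 and -0.70 ± 0.22 in LOG over Q. HMG2 lost its call in LOG without Q replicate 1 (adjusted p = 0.0750), LOG replicate 2 (0.0637) or LOG replicate 3 (0.0616). YEH1 was above Q in E240 (1.06 ± 0.25) and stood at -0.14 ± 0.25 (adjusted p = 0.653) in LOG, with 253, 169.9 and 159 in LOG, against 195, 235 and 199 in Q. YEH2 was higher in E240 (0.76 ± 0.22, adjusted p = 0.00904). The calls of MVD1, IDI1 and ERG26 in E240 over Q were each lost without some single libraries. For MVD1 these were Q replicates 2 and 3 and E240 replicate 1 (adjusted p = 0.0618, 0.0620 and 0.0697), and for IDI1 they were Q replicate 1 and E240 replicates 2 and 3 (0.0540, 0.0723 and 0.0724). For ERG26 they were Q replicate 1 (0.121) and E240 replicates 2 and 3 (0.0821 and 0.0807).

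In LOG over Q, ERG25 (1.10 ± 0.44, adjusted p = 0.0474) and CYB5 (1.20 ± 0.44, adjusted p = 0.0334) rested on LOG replicate 1, without which they stood at 0.55 (adjusted p = 0.173) and 0.59 (0.103). Both also lost their calls without any 1 of the Q libraries (ERG25 0.0808 to 0.118, CYB5 0.0673 to 0.0749). NCP1 lost its call without Q replicate 2 (0.0718), Q replicate 3 (0.100), LOG replicate 1 (0.0815) or LOG replicate 2 (0.130). MVD1 did so without Q replicate 2 (0.0531) or 3 (0.0533). With total-count scaling, which moved the median of all genes by -0.47, 11 sterol genes were higher and 6 lower in LOG than in Q. With the block, ERG25 (0.00385), ERG27 (0.0114) and HES1 (0.0369) were also called in E240 over Q, and ERG10, ERG27, YEH2, UPC2 and HES1 (0.0362, 0.00895, 0.0489, 0.0450 and 0.00850) in LOG over Q.

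Pairs of genes with the same kind of product were compared by the log2 ratio of their values per kb in each library. No stretch of 75 bases, the read length, in any of the 32 coding sequences occurred elsewhere in the reference, and the longest run shared by HMG1 and HMG2 was 23 bases, so reads of the paralogs can be told apart. With 3 libraries against 3, the exact permutation test cannot give a two-sided p below 0.10, so that none of the 20 comparisons could pass 0.05. The smallest adjusted p over the 20 was 0.154. The order of the HMG-CoA reductase genes differed between E30 and E240. The log2 ratio of HMG1 to HMG2 was -1.25, -1.32 and -1.40 in Q, -0.85, -1.15 and -0.85 in E30, 0.43, 0.40 and 0.44 in E240 and 0.03, 0.16 and 0.34 in LOG. HMG2 was thus the higher of the pair in all 6 libraries of Q and E30, and HMG1 in all 6 of E240 and LOG. The difference of E240 over E30 was 1.37 (exact permutation p = 0.10, the smallest it can give; adjusted p = 0.154).

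The ratio of YEH1 to YEH2 was highest in E30. It was -1.69, -1.94 and -2.06 in Q, -0.28, -0.39 and -0.40 in E30, -1.75, -1.56 and -1.48 in E240 and -2.03, -2.41 and -2.88 in LOG. YEH2 was the higher of the pair per kb in all 12 libraries, and the E30 libraries overlapped with no other group. The difference of E30 over Q was 1.54 and that of E240 over E30 was -1.24 (exact permutation p = 0.10 each, adjusted p = 0.154). The ratio of UPC2 to ECM22 was -0.20, -0.05 and -0.24 in E30, against -0.90, -1.18 and -1.21 in Q, a difference of 0.93 (exact permutation p = 0.10, adjusted p = 0.154). That of ARE1 to ARE2 was 0.01, 1.18 and 1.09 in E240, against -0.43, -0.90 and -0.61 in Q, a difference of 1.41 (exact permutation p = 0.10, adjusted p = 0.154), with the uncertainty over ARE1 given above. The consecutive steps ERG1 and ERG7, a pair chosen after its values were seen and therefore not tested, changed order between Q and E30. The log2 ratio of ERG1 to ERG7 per kb averaged -1.87 ± 0.26 in Q, 1.69 ± 0.17 in E30, 2.91 ± 0.23 in E240 and 3.16 ± 0.29 in LOG (SD, n = 3 each).

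**Figure D4:**
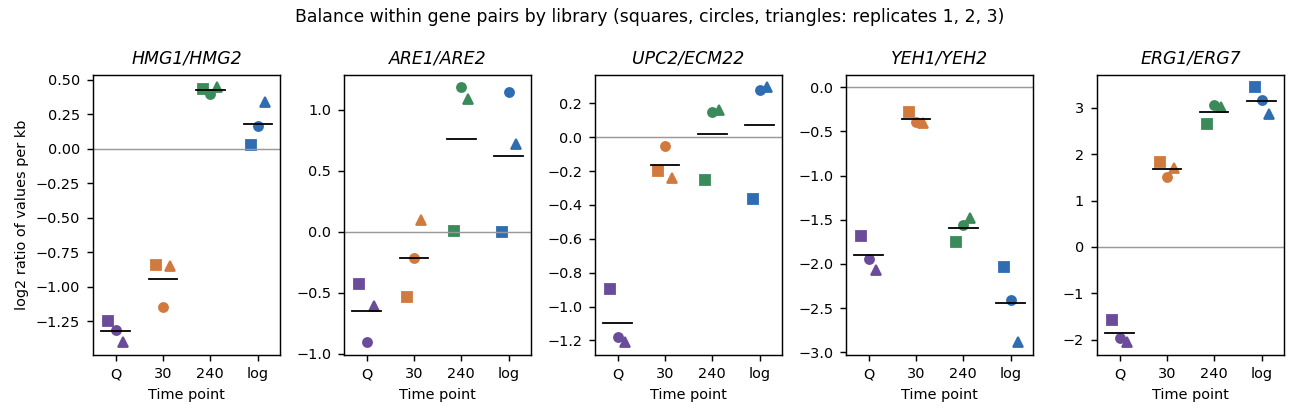
Log2 ratio of the values per kb of coding length in each library for HMG1/HMG2, ARE1/ARE2, UPC2/ECM22, YEH1/YEH2 and ERG1/ERG7, by time point; squares, circles and triangles are replicates 1, 2 and 3, bars are means, and the grey line marks equal levels. HMG1/HMG2 passes from below to above the line between 30 and 240 min, YEH1/YEH2 is highest at 30 min, and ERG1/ERG7 is below the line only in Q.

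Other genes of sterol handling were counted from lists. Among all tested genes 20.6% were called higher and 23.7% lower in E30 than in Q, 13.3% and 14.0% in E240 than in E30, 3.27% and 4.09% in LOG than in E240, 29.1% and 29.5% in E240 than in Q, and 28.8% and 27.8% in LOG than in Q. Of 17 genes of sterol transport and storage, 3 were called higher and 9 lower in E30 than in Q, and 4 higher and 1 lower in E240 than in E30. LAM5 (-1.81 ± 0.31), SWH1 (-1.59 ± 0.24) and LAM6 (-1.45 ± 0.29), which encode proteins of membrane contact sites, fell in E30. KES1, also known as OSH4, the oxysterol-binding protein that exchanges sterol for a phosphoinositide, rose at both steps (1.14 ± 0.15 and 1.23 ± 0.15) and averaged 412 ± 6.34 in Q, 912 ± 40.7 in E30, 2146 ± 128 in E240 and 2920.0 ± 194 in LOG. NPC2, a vacuolar sterol-binding protein gene, averaged 1040.0 ± 382 in E240 and 5169.9 ± 1948 in Q (-2.31 ± 0.34).

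Of 10 genes of sterol uptake and low-oxygen growth, 2 were higher and 2 lower in E30 than in Q, 2 were lower in E240 than in E30, and 1 was lower in LOG than in E240. The counts of E30 over Q are near the shares of all tested genes. Against Q, 5 of the 10 were lower in E240, and 1 was higher and 6 were lower in LOG. SUT2 (2.03 ± 0.58) and SUT1 (0.98 ± 0.34), which encode regulators of sterol uptake, rose in E30, and DAN4, a mannoprotein gene of anaerobic cells, fell (-1.25 ± 0.28). SUT1 averaged 96.6 ± 46.4 in LOG and 328 ± 65.8 in E240 (-1.83 ± 0.34). Of 11 genes of haem synthesis and oxygen control, 2 rose and 2 fell in E30 over Q, near or below the shares of all tested genes. HEM3, of the haem pathway, averaged 1724 ± 383 in E30 and 396 ± 71.5 in Q (2.11 ± 0.23), and the ferrochelatase gene HEM15 averaged 364 ± 105 in E30 and 999 ± 499.7 in Q (-1.36 ± 0.35). HEM15 was then higher in E240 than in E30 (1.55 ± 0.35), and ROX1 was higher in E30 than in Q (1.05 ± 0.31). The oxygen-requiring coproporphyrinogen oxidase gene HEM13 averaged 867 ± 83.6 in E240 and 194 ± 19.7 in Q (2.16 ± 0.47).

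Of 7 genes that control HMG-CoA reductase protein, 1 was higher and 2 were lower in E30 than in Q, and 2 were higher in E240 than in E30, and the counts of E30 over Q are near the shares of all tested genes. Against Q, 2 were higher and 4 lower in E240, and 2 were higher and 4 lower in LOG. HRD3, of the ubiquitin ligase that degrades Hmg2, fell in E30 (-1.50 ± 0.24), and the INSIG homologue gene NSG1 rose in E240 over E30 (0.85 ± 0.28). Over Q, NSG1 stood at 1.01 ± 0.28 in E240 and its paralog NSG2 at -1.39 ± 0.36. Of 10 genes that use isoprenyl diphosphates outside sterols, 5 were higher and 3 lower in E30 than in Q, and 3 were lower in E240 than in E30. NUS1, needed for dolichol synthesis, rose in E30 over Q (1.34 ± 0.16), and COQ1 (-1.02 ± 0.38) of ubiquinone synthesis and RAM1 (-0.96 ± 0.18) of protein farnesylation fell.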

How the data were processed

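RNA of 12 yeast samples in 4 groups of 3 was analysed from the table the authors deposited, which holds a normalised signal per gene and library. The tools named, per the submitters' processing notes, are bedtools, DESeq2, DESeq, HTSeq 0.6.1 and STAR 2.5.2a, and the build is sacCer3; their roles and the strand setting are not stated. In every library 100% of values were whole multiples of 1 read's worth (tolerance 1e-06), 6.97 units in Q replicate 1 and 0.554 to 1.70 elsewhere. Changes were tested in R 4.3.3 on log2(value + 1) with limma 3.58.1, with the variance trended on the mean. The 4 groups stood in 1 model with 8 residual degrees of freedom, two-sided, Benjamini-Hochberg adjusted over 5871 genes. The limma fit was also run on simulated counts. These held no replicate 1 effect, so that run does not measure the error rate in these data. Recovered reads were tested with edgeR 4.0.16 and DESeq2 1.42.0 as alternatives. Gene names and sequences came from reference R64. Deviations from group means correlated at 0.13 to 0.58 over 18 same-numbered pairs. Replicates 2 and 3 correlated across numbers as well (0.21 to 0.55), while replicate 1 ran against 2 (-0.52 to -0.20) and 3 (-0.60 to -0.32). These values set replicate 1 apart and do not show that the number pairs replicates 2 and 3. The block is an alternative and is quoted where it changes a call. Genes shown by library were the 2 called members of each role with the largest change in each successive comparison and the members of paralog pairs, with IDI1, ERG7, ERG20, ERG26, CYB5 and HES1 added in places after their values were seen. Of the other lists up to 3 called genes with the largest change were named, and HEM13, NSG2 and HSP12 were added. YSP1 and COD1 of the lists were found under LAM1 and SPF1. The members, lists and tests were chosen with earlier results of these data known. Proteins were not used here.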

Additional observations from a re-analysis of the deposited data

How the results depend on the processing

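The 160 changes (32 genes in 5 comparisons) were recomputed under other settings, and under the omission of each library for the comparisons that contain it, 3040 values in all. No called change turned its sign in these 3040 values. Pseudocounts of 0.5 and 8, TMM scaling, no filter on low values and a mean of at least 50 changed no call. The edgeR test lost 1 call and added 1, and DESeq2 added 4. The replicate block added 17 and lost none. In E240 against E30, 24 genes were higher and 5 lower with array weights, and 24 and 3 without the 4 replicate 1 libraries together, against 17 and 2 with the replicate block; with total-count scaling 4 were lower. In LOG against E240, 0 were higher with total-count scaling, 0 with upper-quartile scaling and 0 with only the 2 groups compared, where 0 were lower too; 2 were higher with the replicate block, 9 higher and 8 lower with array weights and 8 and 10 without the 4 replicate 1 libraries together. In E30 against Q, 4 were lower with total-count scaling and 6 with upper-quartile scaling. In E240 against Q, 26 were higher with array weights. In LOG against Q, 11 were higher with total-count scaling, and 7 and 8 were lower with array weights and without the 4 replicate 1 libraries together. Leaving out 1 library at a time, from all 12 in the model, gave 7 to 12 lower genes in E30 against Q. Without any 1 of the 6 libraries of that comparison the count was 7 or 8, below the 11 of the main fit. Omissions from all 12 gave 0 to 1 lower in E240 against E30 and 0 to 5 higher and 0 to 5 lower in LOG against E240. In LOG against E240 the log2 ratio of ARE1 to ARE2 ran from -0.51 to 0.17 and that of UPC2 to ECM22 from -0.0853 to 0.27 when 1 library was left out, so neither had a stable sign. Low values in Q replicate 1, the shallowest library, are the least precise, such as CYB5 with 14 reads. The cause of these differences was not tested.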
